A study of Mus musculus with 8 samples.

Results

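The genes described here are the G1 cyclins, the cyclin-dependent kinases (CDKs) they activate and a pair of CDK inhibitors: Ccnd1, Ccnd2, Ccnd3, Ccne1, Ccne2, Cdk2, Cdk4, Cdk6, Cdkn1b and Cdkn2c. They were taken by gene name from the non-control spots of the arrays, and every probe that carried one of these names was used. The 10 genes had 15 probes among 34715 gene names and 55681 probes in all. The cells were of the mouse pre-B line 1676, genotype SLP-65-/- LAT-/-, and their RNA was read on 8 single-colour Agilent arrays of 60-base probes, 2 for each of 4 groups. The groups were control with IL-7 and miR-125b with IL-7, both grown in an excess of interleukin-7, and control without IL-7 and miR-125b without IL-7, both kept for 24 h after the cytokine was removed. Every group carried a retroviral vector, either the control vector or one that encodes hsa-miR-125b-1, was selected in 1 µg/ml puromycin, and lacked both adaptor proteins, so no group represents untransduced or adaptor-proficient cells. Medium held 7.5% FCS in all groups, and the IL-7 came from the supernatant of IL-7-expressing J558L cells. Per the series' description, the experiment was done 2 times, each with separately made cell clones, so the 2 arrays of a group differ by clone as well as by culture.

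D-type cyclins (Ccnd1, Ccnd2, Ccnd3) bind CDK4 and CDK6, and E-type cyclins (Ccne1, Ccne2) bind CDK2. Together these kinases phosphorylate RB family proteins, which frees E2F factors to switch on the genes of DNA replication. The INK4 protein encoded by Cdkn2c (p18) binds CDK4 and CDK6, whereas the protein encoded by Cdkn1b (p27) acts on cyclin-CDK complexes. In pre-B cells IL-7 drives proliferation, and cyclin D3 is the D-type cyclin required for the expansion of pre-B cells.

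The mature miR-125b strand is the agent that separates the groups, so its sequence is given first, from RefSeq on GRCm38.p6, where the mouse copies lie at chr9:41581940-41581961 and chr16:77646279-77646300, both on the plus strand. Capitals mark the seed, bases 2 to 8.
mmu-miR-125b-5p: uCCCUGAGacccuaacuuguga
The results for Ccnd2 rest on a single probe, and those for Cdk4 on 3 probes, 1 of them from the coding sequence as is the Ccnd2 probe. Both coding probes are shown in lower case from 5′ to 3′, with the positions the files give in mm9, which are chr6:127098696-127098755 on the minus strand for Ccnd2 and chr10:126503162-126503221 on the plus strand for Cdk4.
Ccnd2 probe: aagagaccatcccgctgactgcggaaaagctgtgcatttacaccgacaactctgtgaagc
Cdk4 probe: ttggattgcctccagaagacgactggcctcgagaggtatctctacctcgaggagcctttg

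In all, 13 probes of 8 members passed the filter for a test, which asked for 1 or more groups with both arrays well above background, and 20677 genes passed it over the whole array. Ccnd1 and Ccne2 did not pass and are described by their signals only. Levels below are log2 signals relative to the 75th percentile of the same array, given for each probe. Since probes differ in brightness, expression is compared between groups and not between probes. Levels of different probes are set against each other only to describe brightness or to choose a gene's probe. Differences were called where limma's two-sided p, adjusted by Benjamini-Hochberg over the 20677 genes, was under 0.05, and each SE is that of the fit.

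Between 47.7% and 54.8% of probes were well above background on an array, and 0 spots were saturated. The 2 arrays of a group correlated across the tested genes at r between 0.994 and 0.996. The arrays with IL-7 were all on slide 1 and those without on slide 2, scanned separately, so IL-7 cannot be told apart from the slide, and control arrays lay in column 1 of slide 1 and columns 1 and 2 of slide 2 while miR-125b arrays lay in column 3 and in columns 3 and 4, so vector cannot be told apart from place on the slide. The 75th percentile of the processed signal was 275.8 to 314 on the first slide and 515 to 620.5 on the second, and the withdrawal difference varied with brightness: its median was 0.46 in control cells among the dimmest 10% of tested genes and -0.55 among the brightest 10%. Pre-B markers were well above background on all 8 arrays for 9 of 9 genes, with a summed level (linear signal relative to the 75th percentile) of 1630 to 1680 with IL-7 and 1220 to 1290 without. Of the T and NK cell markers, 3 of 7 were well above background with IL-7 and 4 of 7 without, Cd8a being the addition, and their summed level was 7.17 to 8.65 with IL-7 and 9.49 to 10.1 without, while Cd3d, Cd3g and Ncr1 were in no group above background on both arrays. For myeloid markers 4 or 5 of 6 were above background, with summed levels of 187 to 225 with IL-7 and 194 to 227 without. Plasma cell markers (3 or 4 of 4 above background) summed to 15.5 to 18.1 in control and 20.6 to 24.9 in miR-125b cells with IL-7, and to 12.5 to 13.3 and 16.3 to 16.8 without. The part of these markers in the results was not tested.

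**Figure D1:**
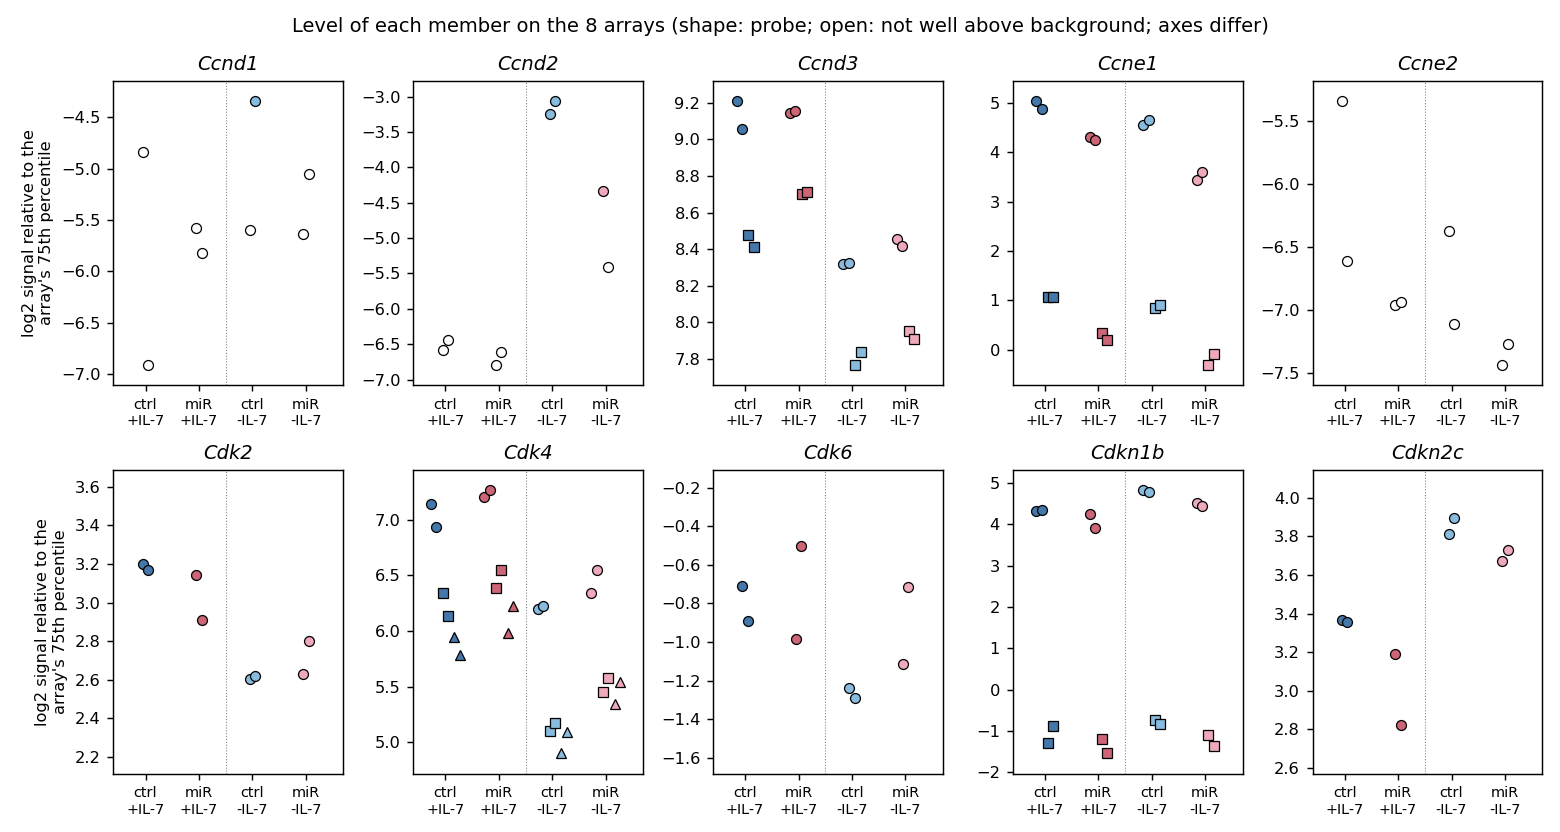
Level of each member on each of the 8 arrays (y axis, log2 signal relative to the array's 75th percentile, with its own range in each panel) in the 4 groups (x axis). Each point is 1 array, shapes separate the probes of a gene and open points are not well above background. Ccne1 is lower on both miR-125b arrays than on both control arrays with and without IL-7 for both probes, and Ccnd2 has filled points only without IL-7.

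The question put by the vector comparison is which of these genes differ in cells that express miR-125b. Ccne1, which encodes cyclin E1, was the one member called lower in miR-125b cells both with and without IL-7. Ccnd2, which encodes cyclin D2, was lower in miR-125b cells without IL-7, at signals close to background. Of the 8 members tested, 1 was called with IL-7 (0 higher, 1 lower), where 2.37% of all genes were called, 1.18% higher and 1.19% lower. Without IL-7, 2 were called (0 higher, 2 lower), against 6.46% of all genes, 2.87% higher and 3.59% lower. Ccnd2 was among these. Its probe passed the filter only through the control arrays without IL-7, so that group was high by selection. The Ccnd2 calls here and in the average are therefore not independent of the filter. In the average over both conditions 2 were called (0 higher, 2 lower), against 15.8% of all genes, 7.68% higher and 8.09% lower. The median difference over the 8 members was -0.17, -0.02 and -0.14 in these comparisons, and over all genes it was -0.02 in each.

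The E-type cyclins activate CDK2 late in G1. The brighter Ccne1 probe, which the files place in part at chr7:38882937-38882960 in mm9 on the minus strand, read 5.03 and 4.89 on the control arrays with IL-7 and 4.30 and 4.25 on the miR-125b arrays with IL-7. Without IL-7 it read 4.56 and 4.67 in control cells and 3.44 and 3.60 in miR-125b cells. The groups did not overlap in either condition, and the highest of the 4 miR-125b values was below the lowest of the 4 control values. The log2 difference in Ccne1 was -0.69 with IL-7 (SE 0.10, adjusted p = 0.0362) and -1.09 without (SE 0.10, adjusted p = 0.00937), a 1.61-fold and a 2.13-fold decrease. The average over both conditions was -0.89 (SE 0.07, adjusted p = 0.00305). The dimmer Ccne1 probe, at chr7:38885574-38885633, gave -0.81, -1.07 and -0.94, each called in a fit over all 29811 kept probes (adjusted p = 0.0399, 0.0137 and 0.00411). The averaged call was kept under all 18 alternatives tried, from -0.94 to -0.75, with adjusted p from 5.039e-05 to 0.0218. The call with IL-7 was less firm: leaving out any 1 of the 8 arrays gave -0.76 to -0.61 with adjusted p from 0.0778 to 0.119. Without IL-7 the call was lost on leaving out any of the 4 arrays without IL-7 (down to -1.01, adjusted p up to 0.0726).

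Ccne2, which encodes the related cyclin E2, was not well above background on any array. Its processed signals ran from 2.424 to 6.976 with IL-7 and from 3.341 to 6.208 without, so no difference is given. Its only probe lies at chr4:11131423-11131482 and has a GC content of 15%.

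Among the D-type cyclins, Ccnd3 was far above background on all arrays and was not called by vector. Its brighter probe, at chr17:47736579-47736638, read 9.21 and 9.06 in control cells and 9.14 and 9.15 in miR-125b cells with IL-7, and the groups overlapped. Without IL-7 the values were 8.32 and 8.32 in control cells and 8.46 and 8.42 in miR-125b cells. Neither difference was called, at 0.02 (95% interval -0.17 to 0.21, adjusted p = 0.922) and 0.12 (-0.08 to 0.31, adjusted p = 0.413). The other Ccnd3 probe, at chr17:47736267-47736326, gave 0.26 and 0.13, also not called (adjusted p = 0.138 and 0.364).

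Ccnd2 was measured at its single probe only without IL-7. There the control arrays read -3.25 and -3.07, both well above background, and the miR-125b arrays read -4.34, above background, and -5.41, not above it. The fitted difference was -1.71 (SE 0.33, adjusted p = 0.0416), with the dim array in the mean. The call was lost on leaving out any 1 of the 8 arrays, where the difference ranged from -2.25 to -1.18 and the adjusted p from 0.0555 to 0.171. With IL-7 none of the 4 arrays was well above background, at levels between -6.79 and -6.44, so no fold is given there and the called average of -0.95 (adjusted p = 0.0472) rests in part on values that carry no order. The average was called in 4 of its 16 alternatives, with adjusted p from 0.00724 to 0.121. Ccnd1, read by 1 probe at chr7:152116202-152116261, was well above background on 1 of 8 arrays, the second control array without IL-7, with a processed signal of 27.93 against 2.299 to 18.66 on the others.

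For the kinases, no difference between miR-125b and control cells was called. Cdk4 read 7.15 and 6.94 in control cells and 7.20 and 7.27 in miR-125b cells with IL-7, and 6.20 and 6.22 against 6.34 and 6.55 without IL-7. The miR-125b arrays were the higher ones in both conditions, by 0.19 and 0.24, and the average of 0.21 (SE 0.08, 95% interval 0.03 to 0.41) had an unadjusted p of 0.0323 and an adjusted p of 0.116. Its other probes, at chr10:126504174-126504233 and at the coding position shown above, averaged 0.30 and 0.34 (adjusted p = 0.0576 and 0.068). Cdk2, the partner of the E-type cyclins, differed by -0.16 with IL-7 and 0.10 without, and its average of -0.03 had a 95% interval of -0.21 to 0.16. Cdk6, the other partner of the D-type cyclins, differed by 0.06 and 0.35, and its wider interval for the average, -0.15 to 0.56, includes both 0 and the value of Cdk4.

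Both inhibitors were lower in the miR-125b arrays without passing the test. Cdkn1b read 4.32 and 4.35 in control cells and 4.24 and 3.92 in miR-125b cells with IL-7, and 4.83 and 4.78 against 4.51 and 4.44 without IL-7. All 4 miR-125b values were below the control values of the same condition, and the average was -0.29 (SE 0.08, adjusted p = 0.0665). The dimmer Cdkn1b probe overlapped with IL-7, at -1.29 and -0.87 in control and -1.20 and -1.54 in miR-125b cells. It averaged -0.375 (adjusted p = 0.122 in the fit over all kept probes). Cdkn2c read 3.37 and 3.36 against 3.19 and 2.82 with IL-7, and 3.81 and 3.89 against 3.67 and 3.73 without, with an average of -0.25 (SE 0.09, adjusted p = 0.117). Under the alternatives the Cdkn1b average was called in 4 of 18, with adjusted p from 0.0181 to 0.374, and the Cdkn2c average in 3 of 17, with adjusted p from 0.0307 to 0.559. One of these calls arose for each gene on leaving out the first miR-125b array with IL-7, which gave -0.38 for Cdkn1b and -0.35 for Cdkn2c.

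**Figure D2:**
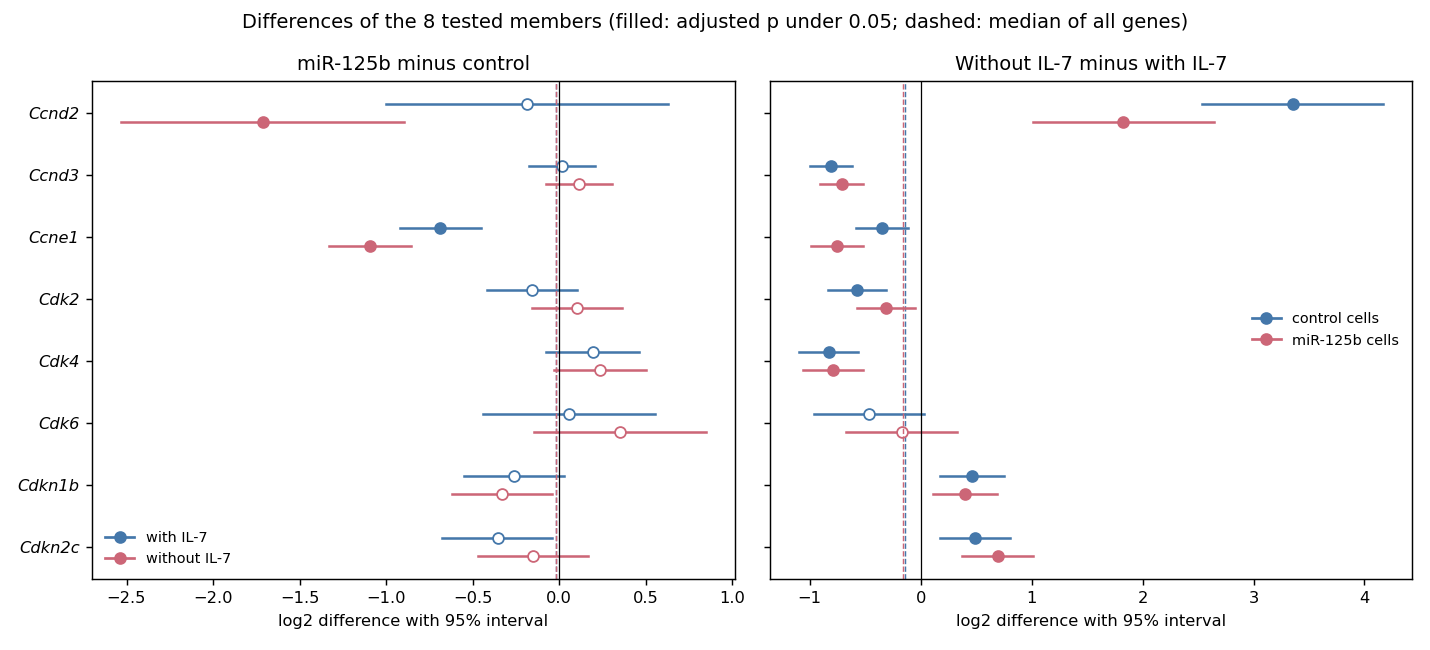
Log2 difference with its 95% interval (x axis) for each of the 8 tested members (y axis), between miR-125b and control cells (left) and between cells without and with IL-7 (right). Filled circles passed an adjusted p of 0.05 and dashed lines mark the median of all genes; with miR-125b only Ccne1 and, without IL-7, Ccnd2 are filled, while on withdrawal all but Cdk6 are filled. The Ccnd2 values include arrays at background.

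The labels give withdrawal of IL-7 for 24 h as the step that starts pre-B cell differentiation. On the levels defined above, Ccnd3, Ccne1, Cdk2 and Cdk4 were lower without IL-7, and the inhibitors Cdkn1b and Cdkn2c were higher. Arrays with and without IL-7 were on different slides, so withdrawal cannot be told apart from slide. After quantile normalization the Ccnd3 fall was not called in either kind of cell. Neither were those of Ccne1 in control cells and of Cdk2 and Cdk4 in miR-125b cells. With median scaling the rise of Cdkn1b was not called in either, nor that of Cdkn2c in control cells. Ccnd3 and Cdk4 lay in the brightest 10% of tested genes, whose median difference was -0.55 in control and -0.56 in miR-125b cells. In control cells 7 of 8 tested members were called (3 higher, 4 lower), where 54.5% of all genes were called, 19.5% higher and 35% lower. In miR-125b cells 7 of 8 were called as well (3 higher, 4 lower), where 53.7% of all genes were, 18.6% higher and 35.1% lower. Most genes of the array were called, so the count of members is read only against that background. The same 4 members were lower, and Ccnd2, Cdkn1b and Cdkn2c higher, in both kinds of cell. For Ccnd2, which passed the filter only through the control arrays without IL-7, the call in control cells is not independent of the filter. The median over the members was -0.40 in control and -0.24 in miR-125b cells, against -0.14 and -0.16 over all genes. In a cell line as in any bulk sample, fewer cells that express a gene and less RNA per cell cannot be told apart.

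Several of these values depended on how arrays were scaled against each other. Scaling to the median in place of the 75th percentile moved the median withdrawal difference of all genes from -0.14 to -0.47 in control cells and from -0.16 to -0.38 in miR-125b cells, whereas quantile normalization gave -0.05 and -0.03. Quantile-normalized values are therefore given below for the members and for some other genes; the authors' deposited table, whose columns share one distribution, gave nearly the same values as quantile normalization.

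Cdk4, the kinase that pairs with D-type cyclins, was lower on both arrays without IL-7 than on both with it, in each kind of cell and for each of its 3 probes. The main probe, at chr10:126504279-126504338, fell by 0.83 in control cells (log2 difference -0.83, SE 0.11, adjusted p = 0.00239) and by 0.79 in miR-125b cells (-0.79, adjusted p = 0.00304). The other probes gave -1.10 and -0.87 in control cells and -0.95 and -0.67 in miR-125b cells, all called. After quantile normalization the difference was -0.42 in control cells (adjusted p = 0.012) and -0.27 in miR-125b cells (adjusted p = 0.0533), so the call in miR-125b cells was lost.

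Ccnd3 was lower by 0.81 in control cells (-0.81, SE 0.08, adjusted p = 0.00152) and by 0.71 in miR-125b cells (-0.71, adjusted p = 0.00202), and its other probe gave -0.64 and -0.78. The processed signal itself was not lower: it ran from 146700 to 177700 with IL-7 and from 164600 to 211900 without. Ccnd3 was no exception in this. The signal of Cdk2 ran from 2232 to 2775 with IL-7 and from 3128 to 4321 without. That of the main Cdk4 probe ran from 33780 to 46300 and from 37790 to 58150. In control cells the brighter Ccne1 probe ran from 8167 to 9275 with IL-7 and from 12170 to 14410 without. Ccnd3 and Cdk4 lay among the brightest 10% of tested genes, whose median difference was -0.55 in control and -0.56 in miR-125b cells. After quantile normalization Ccnd3 differed by -0.07 (adjusted p = 0.334) and -0.01 (adjusted p = 0.905), and the deposited table gave -0.07 and -0.01 as well; the fall was called in 17 of 19 alternatives, those being the exceptions.

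Ccne1 fell by 0.35 in control cells (-0.35, SE 0.10, adjusted p = 0.0257) and by 0.75 in miR-125b cells (-0.75, adjusted p = 0.00256). In control cells the dimmer probe gave -0.20 and was not called (adjusted p = 0.151), quantile normalization gave -0.08 (adjusted p = 0.432), and the call was lost on leaving out the first control array with IL-7 or either control array without IL-7, with values from -0.42 to -0.27. In miR-125b cells the fall was called under all 19 alternatives, from -0.97 to -0.46, the smallest being the dimmer probe, and quantile normalization gave -0.53.

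Cdk2, read at chr10:128135658-128135717, stood at 3.20 and 3.17 in control cells with IL-7 and at 2.60 and 2.62 without. It fell by 0.57 (-0.57, SE 0.11, adjusted p = 0.00664), a fall called under all 18 alternatives and of -0.42 after quantile normalization. In miR-125b cells Cdk2 read 3.14 and 2.91 with IL-7 and 2.63 and 2.80 without, a difference of -0.31 with an adjusted p of 0.0499, just under the threshold. That call was kept under 4 of 18 alternatives, with adjusted p up to 0.384, was not kept after quantile normalization (-0.14, adjusted p = 0.292) and was lost on leaving out any array but the second miR-125b array with IL-7. Cdk6, at chr5:3522106-3522165, was not called in control cells (-0.46, 95% interval -0.96 to 0.03, adjusted p = 0.0988) or in miR-125b cells (-0.17, 95% interval -0.67 to 0.33, adjusted p = 0.502). Quantile normalization gave -0.51 and -0.23, neither called. Its control arrays read -0.71 and -0.89 with IL-7 and -1.24 and -1.29 without, and its miR-125b arrays overlapped between conditions.

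The inhibitors went the other way. Cdkn1b, at chr6:134875424-134875483, rose by 0.47 in control cells (0.47, SE 0.12, adjusted p = 0.019) and by 0.40 in miR-125b cells (0.40, SE 0.12, adjusted p = 0.0326). Quantile normalization gave 0.72 and 0.68, both called, and median scaling 0.14 and 0.18, neither called. A far dimmer probe at chr6:134873606-134873665, which the files list under another transcript accession, gave 0.31 and 0.13 and was not called. In control cells the call was lost on leaving out any of the 4 control arrays (adjusted p up to 0.0869), and in miR-125b cells on leaving out any array but the first miR-125b array with IL-7, with values from 0.23 to 0.56.

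Cdkn2c, at chr4:109333508-109333567, rose by 0.49 in control cells (0.49, SE 0.13, adjusted p = 0.0219) and by 0.69 in miR-125b cells (0.69, SE 0.13, adjusted p = 0.00698). All 4 arrays without IL-7, at 3.67 to 3.89, were above all 4 arrays with IL-7, at 2.82 to 3.37. Quantile normalization gave 0.67 and 0.90, both called. The rise in miR-125b cells was called under all 18 alternatives (0.47 to 0.90), and that in control cells under 12 of 18, being lost on leaving out any of the 4 control arrays (0.45 to 0.53), under median scaling (0.16) and without the filter on dim probes.

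Ccnd2 was read well above background only without IL-7. With IL-7 none of the 4 arrays was above background, and without it both control arrays and 1 of 2 miR-125b arrays were. In control cells the level without IL-7 was 2.73-fold above the lowest signal well above background on the arrays with IL-7. That signal stands in for the dim values and is not a strict detection limit. The fit was called in control cells (adjusted p = 0.00153). The probe passed the filter only through the control arrays without IL-7, so this call and the 2.73-fold are not independent of the filter. In miR-125b cells the same ratio is under 1 and no fold is given, although the fitted difference was called (adjusted p = 0.00649). After quantile normalization the fitted values were 3.10 and 1.56, both called. With normexp background correction, which adds an offset of 50 to all signals, the difference was 0.23 (adjusted p = 0.0746) in control cells and -0.38 (adjusted p = 0.0109) in miR-125b cells, a reversed sign.

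**Figure D3:**
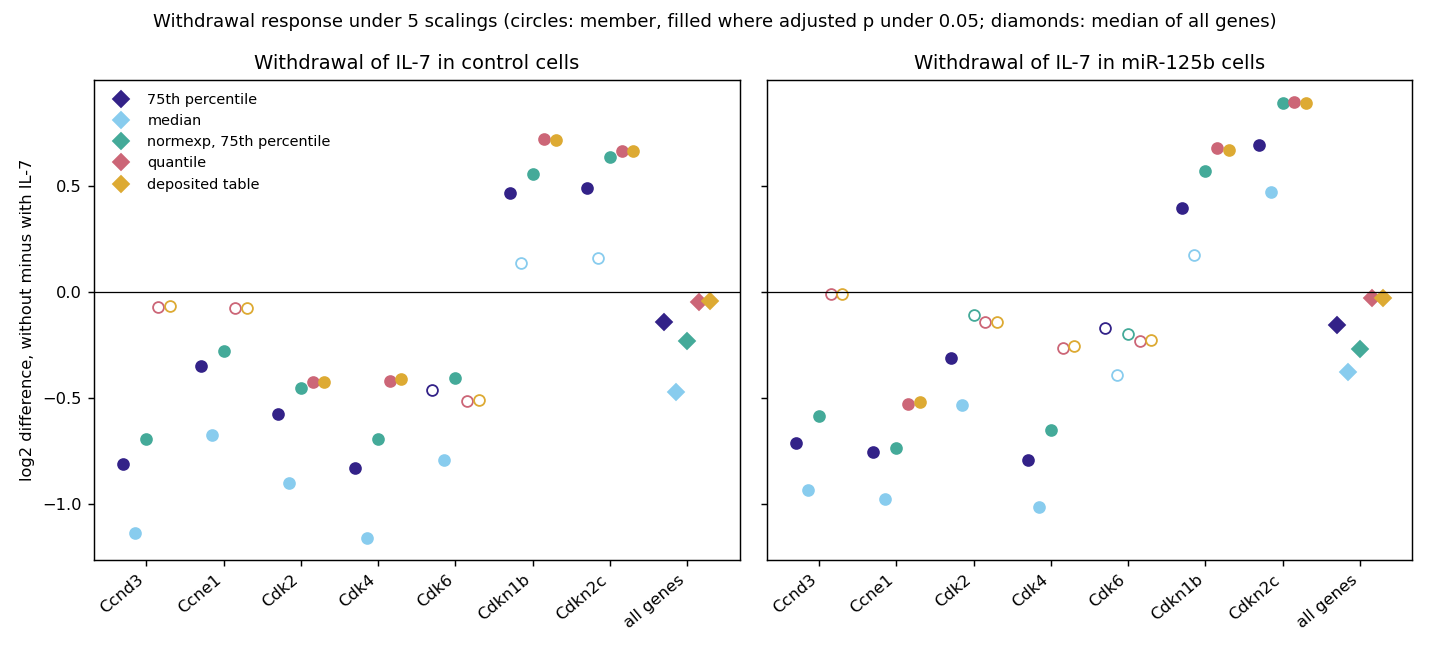
Withdrawal difference (y axis, log2, without minus with IL-7) of 7 members and the median of all genes (x axis) under 5 ways of scaling the arrays, in control cells (left) and miR-125b cells (right). Filled circles had an adjusted p under 0.05 and diamonds are the median of all genes. Ccnd3 moves from -0.81 to -0.07 in control cells between scaling to the 75th percentile and quantile normalization, while Cdkn1b and Cdkn2c stay above 0 under each scaling, open for Cdkn1b in both panels and for Cdkn2c in control cells with median scaling.

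Whether miR-125b altered the response to withdrawal was tested as the difference of both withdrawal differences. None of the 8 members was called (0 higher, 0 lower), and 0% of all genes were called in either direction in limma, although 1229 genes and 2 members had an unadjusted p under 0.05. Those members were Ccnd2, for which no size is given because 5 of its 8 arrays were not well above background, and Ccne1 (-0.41, SE 0.14, unadjusted p = 0.0248, adjusted p = 0.76). Ccnd2 passed the filter only through the control arrays without IL-7, so its unadjusted p is not independent of the filter. For Ccne1 the 95% interval ran from -0.74 to -0.07. For the other 6 members the intervals included 0, from -0.17 to 0.37 for Ccnd3, from -0.34 to 0.42 for Cdk4 and from -0.48 to 0.34 for Cdkn1b, so differences of that size were not detectable with 2 arrays a group.

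Other genes of the pathway were described from 5 lists, all of whose genes passed the filter. Of 24 genes of S-phase entry that E2F factors drive, 16 fell and 0 rose on withdrawal in control cells, and 16 fell and 0 rose in miR-125b cells, with medians of -0.57 and -0.49 against -0.14 and -0.16 for all genes. Of all genes 35% fell and 19.5% rose in control cells, and 35.1% fell and 18.6% rose in miR-125b cells. These shares are also the background of the withdrawal counts of the lists that follow. In the brightest 10% of tested genes 74.3% fell in control and 75.9% in miR-125b cells, with medians of -0.55 and -0.56. In the next 10% the shares were 48.6% and 53.5%. Mcm6, Pcna and Rrm2 read above the main Cdk4 probe, which lay in the brightest 10%. The list was not matched for brightness. Orc1, which encodes a subunit of the origin recognition complex, fell by 1.07 (adjusted p = 0.00184) and by 0.91 (adjusted p = 0.00286), and by 1.08 and 0.88 after quantile normalization. Mcm6, a subunit of the replicative helicase, fell by 0.91 in control cells (adjusted p = 0.00152), by 0.25 after quantile normalization (adjusted p = 0.0198). Gins1, a partner of that helicase, fell by 0.93 and 0.94 (adjusted p = 0.00291 and 0.00309), and Pcna, the sliding clamp, by 0.86 in miR-125b cells (adjusted p = 0.0028), a value that was -0.22 after quantile normalization (adjusted p = 0.129). After quantile normalization 9 of the 24 fell and 3 rose in control cells, where 5783 of all 20677 genes fell and 4883 rose, and 6 fell and 3 rose in miR-125b cells, where 5071 of all genes fell and 4648 rose. For the vector comparisons, 2.37% of all genes were called with IL-7, 6.46% without and 15.8% in the average (7.68% higher, 8.09% lower). By vector 0 of 24 were called with IL-7, 1 without, Gins2 at 0.59 (adjusted p = 0.0382, lost on leaving out any 1 of the 8 arrays, up to 0.181), and in the average 2 were higher, Orc1 (0.45, adjusted p = 0.0237) and Gins2 (0.42, adjusted p = 0.0206), and 1 lower, Rrm2 (-0.27, adjusted p = 0.0306), with a median of -0.01. These averaged calls were kept in 11, 10 and 7 of 17 alternatives for Orc1, Gins2 and Rrm2, and leaving out the second miR-125b array with IL-7, the second miR-125b array without IL-7 or the first control array without IL-7 ended each of them.

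Among 13 genes of the RB and E2F axis, 3 were lower and 0 higher in miR-125b cells with IL-7 (1.19% and 1.18% of all genes), 3 lower and 1 higher without IL-7 (3.59% and 2.87%), and 5 lower and 1 higher in the average (8.09% and 7.68%). The higher one was E2f1, an activating E2F named after its values were seen, at 0.37 without IL-7 (adjusted p = 0.0471) and 0.24 in the average (adjusted p = 0.0348). The 3 lower with IL-7 were E2f2, at -0.66 (adjusted p = 0.029), E2f7, at -0.57 (adjusted p = 0.0317), and E2f8, at -0.49 (adjusted p = 0.0426), the first an activating and the other two repressing members of the E2F family. All of them were lower without IL-7 too, at -0.67, -0.70 and -0.57 (adjusted p = 0.0141, 0.0121 and 0.0186). Their calls with IL-7 were lost on leaving out any 1 of the 8 arrays, and those without IL-7 on leaving out any of the 4 arrays without it, while their averages (-0.66, -0.63 and -0.53) were called under all 17 alternatives. On withdrawal 3 of the 13 rose and 2 fell in each kind of cell, while 7 rose in each after quantile normalization, and 0 in control and 1 in miR-125b cells with median scaling. Of all 20677 genes, 4883 rose in control and 4648 in miR-125b cells after quantile normalization, and 2119 and 2397 with median scaling. Rbl2, which encodes the RB relative p130, rose by 0.64 in both (adjusted p = 0.00277 and 0.00309). E2f4, its E2F partner in quiescent cells, fell by 0.72 and 0.91 (adjusted p = 0.00296 and 0.00213), and E2f1 fell by 0.65 in control cells (adjusted p = 0.00184) and by 0.40 in miR-125b cells (adjusted p = 0.00733).

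Of 6 further CDK inhibitors, 2 rose and 1 fell on withdrawal in control cells, and 2 rose and 2 fell in miR-125b cells, against the shares of all genes given above. Cdkn2b, an INK4 relative of Cdkn2c, read -4.29 and -4.60 in control and -4.58 and -5.09 in miR-125b cells with IL-7, where 1 of 2 arrays in each group was well above background, and -1.46 and -1.09 and then -1.32 and -1.70 without, where all were. Its rise was called in both (adjusted p = 0.00117 and 0.00139), but its size is uncertain because of the dim arrays: the fitted values were 3.17 and 3.32, and 1.19 and 1.13 with normexp. The Cdkn2b probe passed the filter only through the groups without IL-7. Its calls, which are among those counted as rises, are therefore not independent of the filter. Cdkn1c, a relative of Cdkn1b, rose by 0.92 in control cells (adjusted p = 0.0495), a call kept under 5 of 18 alternatives and lost after quantile normalization (0.86, adjusted p = 0.0732). Cdkn2d rose by 0.50 in miR-125b cells (adjusted p = 0.0456; 0.88 after quantile normalization) and was lower by 0.57 with miR-125b in the average (adjusted p = 0.0293), calls kept under 7 of 18 and 9 of 17 alternatives. Cdkn1a (p21), from the family of Cdkn1b, fell by 0.87 and 1.27 (adjusted p = 0.00392 and 0.00195), but the mean over its kept probes gave 0.04 in control cells (adjusted p = 0.857) and -0.05 in miR-125b cells (adjusted p = 0.848).

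Of 14 genes for the activation of CDKs and the turnover of G1 regulators, 1 rose and 7 fell on withdrawal in control cells (19.5% and 35% of all genes) and 1 rose and 6 fell in miR-125b cells (18.6% and 35.1%), with medians of -0.29 and -0.32 for the list. Cdc37 and Hsp90ab1, the chaperones that fold CDK4 and CDK6, fell in control cells, with log2 differences of -0.64 and -1.09 (adjusted p = 0.00298 and 0.00164), and in miR-125b cells, with -0.80 and -0.96 (adjusted p = 0.00218 and 0.0023). After quantile normalization Cdc37 gave -0.10 (adjusted p = 0.266) and -0.20 (adjusted p = 0.0489) and Hsp90ab1 -0.39 (adjusted p = 0.00769) and -0.29 (adjusted p = 0.0208). Fbxo4, an F-box protein of cyclin D turnover, rose by 0.71 and 0.57 (adjusted p = 0.0053 and 0.0114). In the averaged vector comparison 3 genes of the list were higher and 0 lower (7.68% and 8.09% of all genes), Wee1 (0.39, adjusted p = 0.0193), a kinase that inhibits CDKs, Skp1 (0.32, adjusted p = 0.0376) and Cul1 (0.28, adjusted p = 0.0411), both scaffold parts of the SCF ubiquitin ligase; these were kept in 10, 8 and 8 of 17 alternatives. In quantile-normalized values 3 of the 14 rose and 2 fell in control cells, where 4883 of all 20677 genes rose and 5783 fell. In miR-125b cells 3 rose and 4 fell, where 4648 of all genes rose and 5071 fell.

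Of 13 regulators that lie between IL-7 and the G1 genes, 2 rose and 2 fell on withdrawal in control cells, and 4 rose and 3 fell in miR-125b cells, where 54.5% and 53.7% of all genes were called in either direction. After quantile normalization 6 and 7 rose and 1 and 2 fell. Of all 20677 genes, 4883 and 4648 then rose and 5783 and 5071 fell. Myc, which drives Ccnd2 and Cdk4 among other genes, fell by 2.12 in control cells (SE 0.25, adjusted p = 0.00193) and by 1.49 in miR-125b cells (SE 0.25, adjusted p = 0.0052). Without IL-7 it was higher in miR-125b than in control cells by 1.46 (SE 0.25, adjusted p = 0.0333), a call lost on leaving out any of the 4 arrays without IL-7 (1.32 to 1.59). Bach2, a repressor in B-lineage cells, rose by 1.25 and 1.28 (adjusted p = 0.00155 and 0.00185) and Akt1 fell by 0.49 and 0.51 (adjusted p = 0.00486 and 0.00461), the latter giving -0.13 (adjusted p = 0.132) and -0.09 (adjusted p = 0.305) after quantile normalization. Pim2, a STAT5-induced kinase, was lower by 0.47 in miR-125b cells without IL-7 (adjusted p = 0.0302), a call lost on leaving out the same arrays (-0.53 to -0.41).

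**Figure D4:**
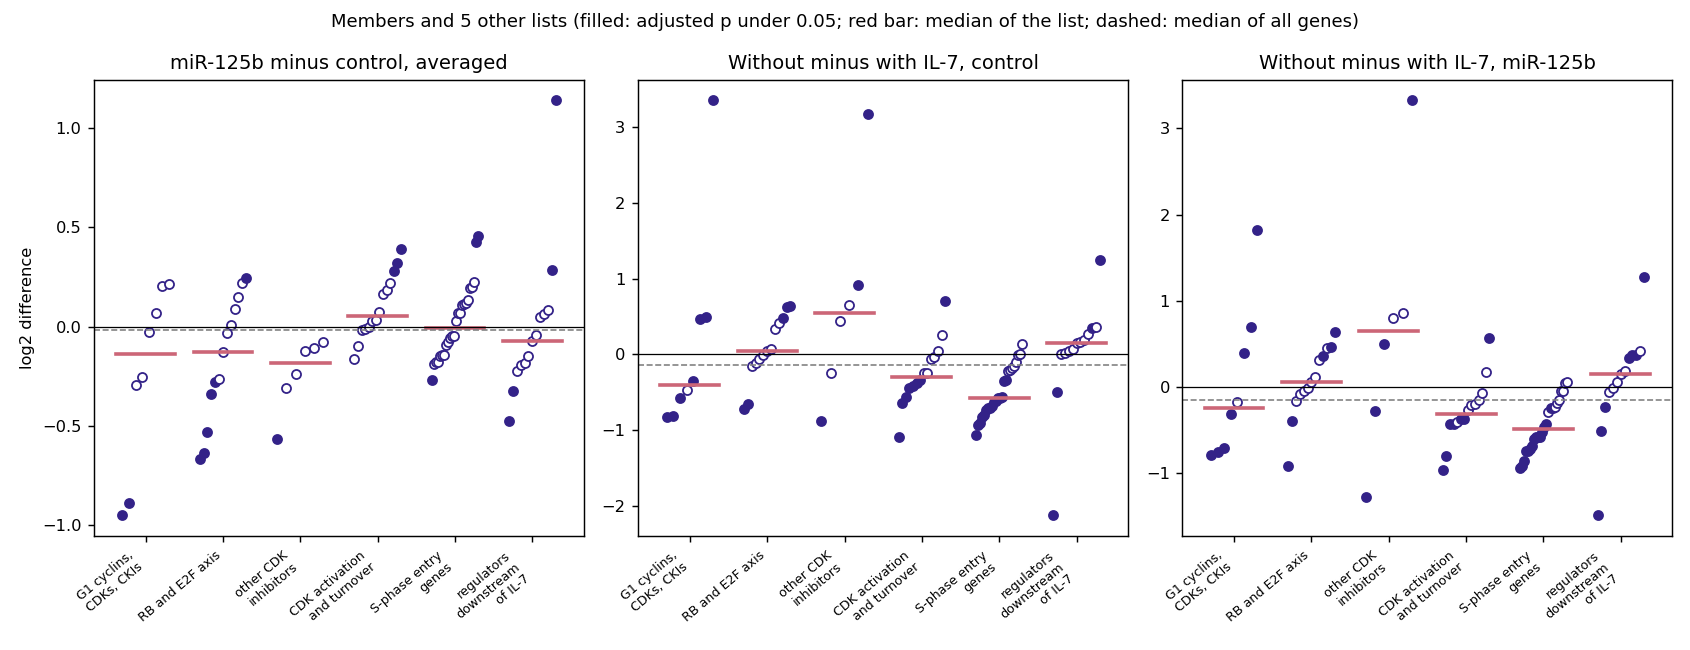
Log2 difference (y axis) of each tested gene in the 10-gene set and in 5 other lists (x axis) for the averaged vector comparison and for withdrawal in control and miR-125b cells. Filled circles had an adjusted p under 0.05, red bars are list medians and the dashed line is the median of all genes. The S-phase list lies below that line on withdrawal, at medians of -0.57 and -0.49, and close to it by vector, at -0.01. On withdrawal the brightest 10% of all tested genes had medians of -0.55 and -0.56.

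Promoter windows of 250 bases before to 50 after the transcription start were taken from RefSeq on GRCm38.p6 for 7 members (9 windows, Ccnd3 and Cdkn2c having 2 each). They were searched on both strands for the E2F motifs TTTCGCGC and TTTGGCGC, the FOXO motif GTAAACA and the STAT motif TTCNNNGAA, since 16 of the 24 S-phase genes fell on withdrawal; the E2F forms can share bases with each other. None of the 9 windows held either E2F motif or the STAT motif, and 1, of Ccnd3, held the FOXO motif, while of all 32851 windows 0.323% and 0.514% held the E2F motifs, 3.65% the FOXO motif and 8.3% the STAT motif. Of 19 S-phase genes with a window, 8 held an E2F motif, among them Orc1 and Mcm6. The list was chosen as genes that E2F factors drive, so this count follows in part from that choice and is a description only. Of all windows, counted as windows and not as genes, 0.813% held an E2F motif. The stretches below lie before the start at chr17:47504801-47504860 (plus strand), chr4:108579401-108579453 (plus strand) and chr1:128359782-128359841 (minus strand), with the motif in capitals as read on the gene's strand. Ccnd3 is shown as the member with a motif, and Orc1 and Mcm6 as S-phase genes with an E2F motif. The Ccnd3 fall on withdrawal was not called after quantile normalization, and that of Mcm6 was smaller.
Ccnd3 promoter: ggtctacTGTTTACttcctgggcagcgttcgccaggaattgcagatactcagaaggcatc
Orc1 promoter: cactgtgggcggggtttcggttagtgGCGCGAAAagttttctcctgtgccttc
Mcm6 promoter: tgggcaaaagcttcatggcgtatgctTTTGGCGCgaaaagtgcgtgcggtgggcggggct

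The genes whose levels over the 8 arrays were most like those of Ccne1, among 13740 genes with a symbol, were Ube2g1 (Pearson r = 0.998), Ccdc88b (r = 0.9963) and Mmgt2 (r = 0.9962), and 8 genes had an r over 0.99. Ube2g1 read -0.01 and -0.09 in control cells with IL-7, -0.38 and -0.43 in miR-125b cells with IL-7, -0.26 and -0.24 in control cells without and -0.90 and -0.84 in miR-125b cells without. As for Ccne1, the miR-125b arrays were the lower ones in both conditions. For Ccnd3 the most alike genes were Rpl10a (r = 0.9985), which encodes a ribosomal protein, Gm13035 (r = 0.9979) and Eef1b2 (r = 0.9979), a translation elongation factor subunit, and 145 genes had an r over 0.99. These correlations are over the same 8 arrays, which share slide and scan within a condition, and are a description without a test.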

How the data were processed

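Per the file headers, each array's deposited scanner file gives the intensity of every spot, background-subtracted, linear and not normalized between arrays, beside other columns of 0 or 1 (above background, saturated, not uniform). Agilent Feature Extraction was 10.7.3.1 with IL-7 and 10.7.1.1 without, per the file headers; for all arrays 10.7.1.1 is named in the submitters' processing notes. The authors' deposited table of intensity values served as an alternative. Of 62976 spots, 3671 control spots were left out. Spots of a probe were averaged as log2 and scaled to the array's 75th percentile over probes. Each gene was represented by its kept probe with the highest mean. Group means over 8 arrays were fitted with limma 3.58.1 under R 4.3.3 (4 residual degrees of freedom); intervals are at 95%. The pipeline was tested on simulated data. All 10 members were named with every probe, up to 3 called genes per list and comparison by size, and the 3 genes most like Ccne1 and Ccnd3. Members and lists were chosen with earlier results of these data known. The number of arrays limits the precision. The p-values rest on the spread between the arrays of a group, in which clone, culture and array cannot be told apart. Where labels number replicates, deviations of same-numbered arrays correlated at -0.098 to 0.113, so the numbers were not used to pair. No columns of other series were found (0).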

Additional observations from a re-analysis of the deposited data

How the results depend on the processing

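Alternatives were normexp background correction, scaling to the median, quantile normalization, the deposited table, no filter on dim probes, only probes above background on all arrays, the mean of a gene's kept probes, a mean-variance trend, only the 4 arrays compared, a replicate block, and leaving out each array. The count of called members stayed within 1.5 times its main value in 62 alternative counts and moved further in 44. For miR-125b with IL-7 (main 1) it was 0 under median scaling, without the filter, under the replicate block and with only the 4 arrays, and 0 to 0 on leaving out arrays. Without IL-7 (main 2) it was 1 under median scaling, the deposited table, no filter, probes above background on all arrays, the trend, the replicate block and the 4 arrays alone, and 0 to 1 on leaving out arrays. For the average (main 2) it was 4 with normexp and 1 under median scaling, quantile normalization, the deposited table, no filter and the replicate block, and 1 to 3 on leaving out arrays. For withdrawal in control cells (main 7) it was 4 without the filter, and 4 to 7 on leaving out arrays; in miR-125b cells (main 7) it was 4 under quantile normalization and under the deposited table, and 5 to 6 on leaving out arrays. For the difference of the responses it was 0 throughout. Called values that turned sign were Ccnd2 on withdrawal in miR-125b cells, at -0.38 with normexp, and Cdkn1a on withdrawal in control cells, at 0.043 with the mean of its probes; uncalled values near 0 also changed sign, those of Ccnd3 and Cdk6 with IL-7, Cdkn2c without IL-7, the Cdk2 average, Cdk6 on withdrawal in miR-125b cells and the response differences of Ccnd3, Cdk4 and Cdkn1b. The causes were not tested.

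The replicate numbers were not used to pair the arrays, and whether same-numbered arrays share an experiment is not known. With the replicate block, counts of all called genes were 4, 453 and 2141 for the vector comparisons (490, 1336 and 3261 without it) and 10539 and 10391 on withdrawal (11269 and 11102). On leaving out arrays the counts of all genes were 0 to 134, 3 to 1145 and 984 to 2677 by vector and 7364 to 11102 and 7695 to 11051 on withdrawal, each below the count from all arrays. They also moved by over 1.5 times without the filter (1, 625 and 1386 by vector), with normexp (784 with and 2706 without IL-7), with the trend (1465 and 2629), with quantile normalization or the deposited table without IL-7 (2077 and 2066), with the 4 arrays alone (0 and 518), with probes above background on all arrays with IL-7 (906), and with median scaling with IL-7 (253). The split of higher against lower calls was 4031 to 7238 on withdrawal in control cells and 3838 to 7264 in miR-125b cells; it was 4883 to 5783 and 4648 to 5071 after quantile normalization and 2119 to 10691 and 2397 to 9218 after median scaling, and 3091 to 10360 in miR-125b cells with normexp. Median scaling also made it 165 to 88, 708 to 190 and 2075 to 554 in the vector comparisons, against 243 to 247, 593 to 743 and 1589 to 1672.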
